A study of Mus musculus with 62 samples.

Results

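The MHC class I presentation genes described here are 10 genes of the 47643 symbols in a cerebellum expression table: the class I heavy chains H2-K1 and H2-D1, their light chain B2m, the peptide transporter subunits Tap1 and Tap2, the loading factor Tapbp, the immunoproteasome subunits Psmb8, Psmb9 and Psmb10, and the transactivator Nlrc5. The rule names them by their role in the pathway and uses no measured value, but they were chosen with earlier results of these data known. The table held 62 RNA-seq libraries of cerebellum from female mice labelled as aged 2 months. Per the series design, the hosts were NCI Ath/nude mice. They had been injected with melanoma cells of a line that is cachectic (CAC) or of one that is not (NCAC), or had been mock injected, and were sampled 2, 4, 6 or 8 weeks later. There were thus 12 groups, of 7 libraries for CAC at 8 weeks and 5 for the others. The sample fields name the strain as C57BL6/J, so the strain, and with it the T cell status of the hosts, could not be settled from the labels. The nude mutation removes the thymus and most T cells. By the labels all groups shared the sex, the age and the tissue, although they were sampled at different weeks after injection. The age at sampling could therefore not be settled from the labels. The libraries are described as biological replicates without naming the animal of each, so each p-value below measures the spread between libraries.

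Class I molecules carry peptides of the cell's own proteins to the surface, where CD8+ T cells and natural killer cells read them. The proteasome makes the peptides, the Tap1 and Tap2 dimer moves them into the endoplasmic reticulum, and Tapbp (tapasin) holds the empty heavy chain and B2m next to the transporter until a peptide binds. Interferon gamma raises transcription of the whole set, and Nlrc5 is the activator dedicated to class I promoters. In healthy brain, class I transcripts are known to be abundant in endothelium and microglia and scarce in most neurons.

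The stretches of DNA before H2-K1, H2-D1, B2m and Tap1 are printed because they hold the control elements that this gene set is known for, and because H2-K1, H2-D1 and B2m encode the molecule at the surface. Each run is the 250 bases before a start of the gene in RefSeq on GRCm38.p6, 5′ to 3′ on the gene's own strand. Capitals mark matches, on either strand, to 6 motifs.
H2-K1: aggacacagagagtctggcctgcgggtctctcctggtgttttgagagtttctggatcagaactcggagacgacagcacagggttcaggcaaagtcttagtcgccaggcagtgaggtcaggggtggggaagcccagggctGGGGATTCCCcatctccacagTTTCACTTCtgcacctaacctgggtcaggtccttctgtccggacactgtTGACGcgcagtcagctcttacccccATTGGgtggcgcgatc
H2-D1: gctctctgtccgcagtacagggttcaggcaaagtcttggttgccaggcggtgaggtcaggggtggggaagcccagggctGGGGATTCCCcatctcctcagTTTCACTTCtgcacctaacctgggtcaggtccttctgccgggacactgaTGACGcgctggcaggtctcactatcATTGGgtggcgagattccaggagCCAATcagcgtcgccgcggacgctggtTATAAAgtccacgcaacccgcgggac
B2m: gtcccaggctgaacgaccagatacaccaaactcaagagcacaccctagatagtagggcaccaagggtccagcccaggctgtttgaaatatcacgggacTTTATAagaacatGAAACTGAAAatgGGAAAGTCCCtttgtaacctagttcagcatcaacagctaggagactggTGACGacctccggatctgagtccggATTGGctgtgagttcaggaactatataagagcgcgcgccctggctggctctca
Tap1: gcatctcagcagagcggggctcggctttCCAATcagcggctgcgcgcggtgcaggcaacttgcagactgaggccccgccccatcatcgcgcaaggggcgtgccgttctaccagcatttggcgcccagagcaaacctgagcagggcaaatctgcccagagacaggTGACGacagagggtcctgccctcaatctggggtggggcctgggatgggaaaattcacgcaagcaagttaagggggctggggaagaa
The windows lie at chr17:34000348-34000597 on the minus strand for H2-K1, chr17:35262844-35263093 on the plus strand for H2-D1, chr2:122147437-122147686 on the plus strand for B2m and chr17:34187306-34187555 on the plus strand for Tap1. The table of windows held 8 of the 10 genes, all but Tap2 and Nlrc5.

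The kappaB motif, searched as GGG, any 2 bases, TT, any base and CC, matched the windows of H2-K1, H2-D1 and B2m, that is 3 of 8, against 4.11% of all 32851 RefSeq windows of this length. In H2-K1 and H2-D1 the matched letters were the same, GGGGATTCCC, 111 and 171 bases before the start, and B2m held GGAAAGTCCC at 126 bases, on the minus strand. An interferon-stimulated response element, searched as GAAA, any 2 bases and GAAA, matched B2m alone among the 8, as GAAACTGAAA at 139 bases, against 2.98% of all windows. The shorter interferon regulatory factor core, GAA, any 2 bases and GAAA, matched H2-K1 and H2-D1 (2 of 8, against 6.31%), each as TTTCACTTC on the minus strand. TGACG, the core of the cAMP response element, matched 5 of 8 against 17.8%, CCAAT matched 6 of 8 against 33.8%, and TATAAA matched 3 of 8 against 12.4%. From the far end to the start, H2-K1, H2-D1 and B2m thus shared the order kappaB motif, TGACG and CCAAT box, while the windows of Tapbp, Psmb8 and Psmb10 held none of the first 4 motifs. These are matches of letters, not measured binding, and the response element and the core can overlap.

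Of the 10 genes, 7 lie in the major histocompatibility complex of chromosome 17, B2m on chromosome 2, and Nlrc5 and Psmb10 on chromosome 8. On GRCm38 with GENCODE M21, all are protein-coding: H2-K1 at chr17:33996017-34000347, Tapbp at chr17:33915899-33929292, Psmb9 at chr17:34181987-34187764, Tap1 at chr17:34187553-34197225, Psmb8 at chr17:34197721-34201454, Tap2 at chr17:34203527-34216321, H2-D1 at chr17:35262730-35267499, B2m at chr2:122147686-122153083, Nlrc5 at chr8:94434356-94527272 and Psmb10 at chr8:105935735-105938444. By these bounds the RefSeq windows of H2-D1, Tapbp, Psmb8 and Psmb9 lie inside the gene and not before it. Motifs before the GENCODE starts of these genes were not searched. Psmb9 and Tap1 are transcribed away from each other and overlap at their starts, and B2m overlaps Patl2 on the other strand. It is not given whether reads were assigned by strand, so values of overlapping pairs are uncertain. The class I heavy chain genes are also near-identical in long stretches, and how shared reads were divided among them is not given.

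Expression was deposited as TPM (transcripts per 1e+06 transcripts, corrected for gene length), so levels of different genes can be compared on this scale. B2m was the most abundant of the set, with 174 ± 50.9 TPM (SD, n = 62 libraries), followed by H2-D1 with 129 ± 60.2 TPM. Tapbp (31.7 ± 3.84), Psmb10 (28.1 ± 2.44) and H2-K1 (26.5 ± 10.1) came next, then Tap2 (9.30 ± 1.35). The lowest were Psmb8 (1.99 ± 0.979), Tap1 (1.40 ± 0.418), Psmb9 (0.820 ± 0.375) and Nlrc5 (0.274 ± 0.212), each in TPM over the same 62 libraries. Light chain message was thus higher than that of either measured heavy chain, and the transporter message was uneven, with Tap2 above Tap1 throughout.

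The lower part of this order held in every library: H2-K1 was above Tap2, Tap2 above Psmb8, Tap1 above Psmb9 and Psmb9 above Nlrc5 in 62 of 62. Neighbours in the upper part overlapped. B2m exceeded H2-D1 in 47 of 62 libraries, H2-D1 exceeded Tapbp in 55, Tapbp exceeded Psmb10 in 53, and Psmb10 exceeded H2-K1 in 44. Psmb8 exceeded Tap1 in 58.

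The 3 inducible proteasome subunits replace Psmb5, Psmb6 and Psmb7 of the constitutive proteasome when interferon acts. In cerebellum, Psmb8 stood at 1.37% ± 0.718 (SD, n = 62) of the TPM of Psmb5, and Psmb9 at 0.556% ± 0.254 of Psmb6. Psmb10 was different in scale, at 27.2% ± 2.52 of Psmb7. In mock libraries at 8 weeks the shares were 2.56% ± 1.98, 1.05% ± 0.505 and 30.4% ± 2.101 (n = 5), and in CAC libraries at 8 weeks 1.252% ± 0.353, 0.443% ± 0.0916 and 26.7% ± 1.89 (n = 7). Psmb8 stayed below Psmb5 in every library, with a highest share of 6.02%.

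**Figure D1:**
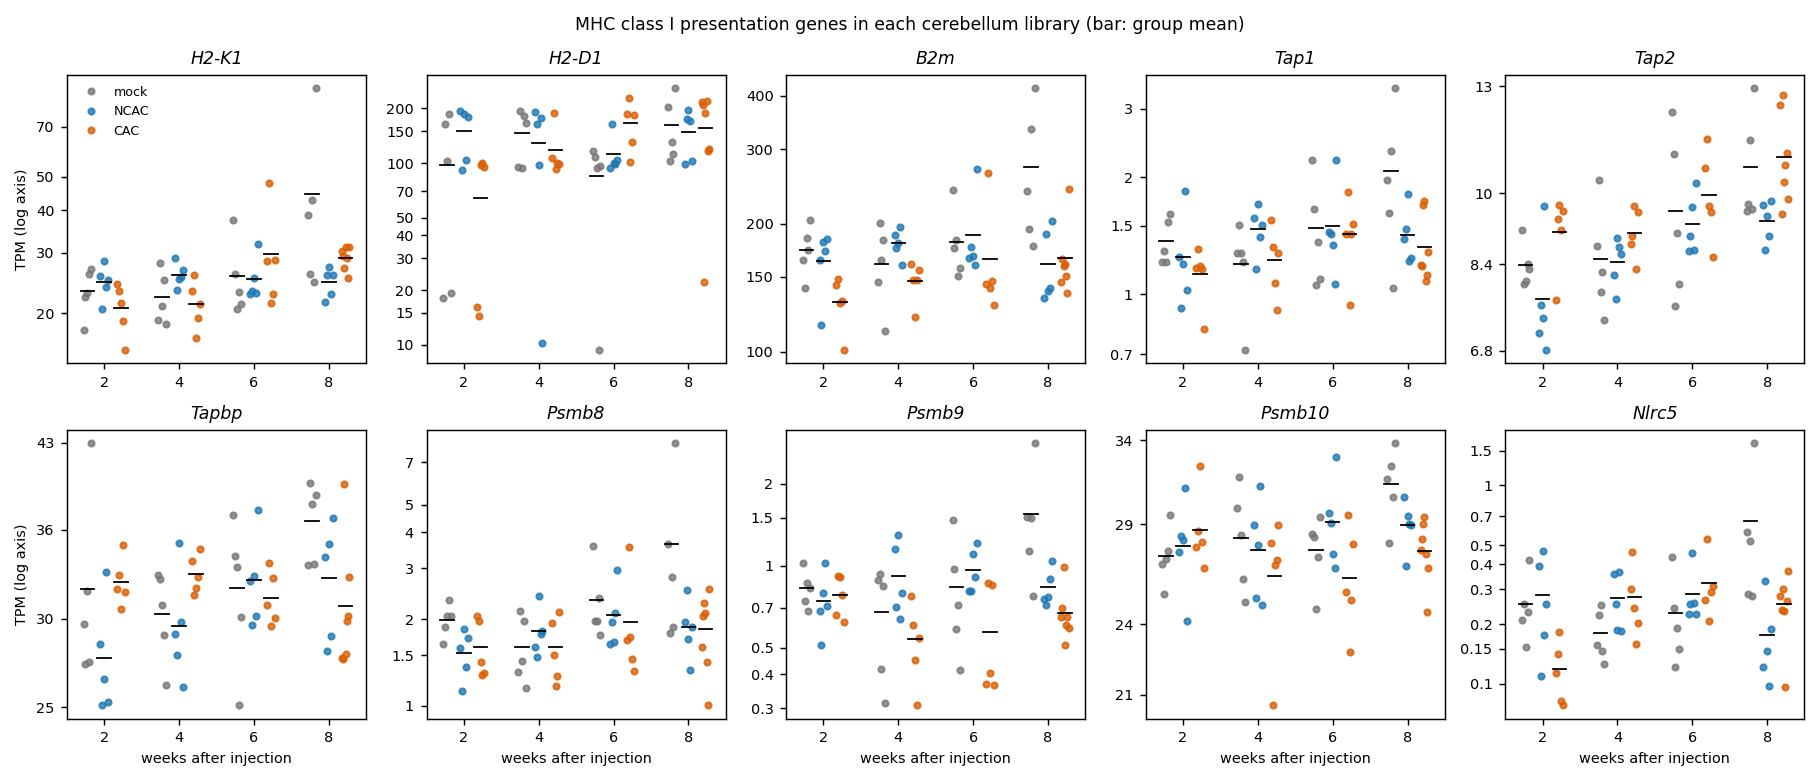
TPM (log axis) of the 10 genes in each of the 62 libraries against weeks after injection, with mock in grey, NCAC in blue, CAC in orange and a bar at each group's mean. One mock library at 8 weeks is the highest of all for 9 of the 10 genes, and H2-D1 falls into separate levels inside many groups.

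The markers of cerebellum were present throughout: 8 neuronal markers summed to 5901 to 7252 TPM and 7 of astrocytes and Bergmann glia to 1721 to 2054 TPM, and none of the 8 and 7 was at 0 in every library. Melanocyte markers summed to 1.09 to 3.19 TPM, and choroid plexus markers ranged from 153 to 8139 TPM. Red blood cell markers ranged from 128 to 20420 TPM, the highest in CAC replicate 3 of week 8. The other libraries of that week held at most 2334 TPM. The part of blood in the class I values of CAC replicate 3 was not tested.

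The library labelled mock, 8 weeks, replicate 5 stood apart. It was the highest of the 62 libraries for 9 of the 10 genes, all but Tapbp, while it was the highest for 184 of the 14399 genes tested (1.28%). Immunoglobulin kappa message (Igkc) was 426 TPM there, against 1.55 to 10.6 in the other 4 mock libraries of that week, and the class II gene H2-Eb1 was 79.8 TPM against 4.87 to 11.8. Mock replicate 3 of the same week was second highest of 62 for B2m and Tap1, and of rank 3 for H2-K1 and Psmb9. Mock replicate 1 was second highest for Psmb8, Psmb9 and Nlrc5, and of rank 4 for H2-K1. The summed TPM of 15 microglial markers was highest within that group in replicate 5 (601) and replicate 3 (464), against 286 to 374 in the other 3. The main results that rest on the mock libraries of week 8 are therefore also given without replicate 5, or without replicates 3 and 5. Leaving out both was chosen after their values were seen.

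At 8 weeks, 4 class I genes were lower in CAC than in mock cerebellum, the light chain B2m, the transporter subunit Tap1, tapasin and the immunoproteasome subunit Psmb8, while both heavy chains, Tap2 and Psmb10 were not called. Of the 4 calls, 1 was left without mock replicate 5 and 0 without mock replicates 3 and 5. Differences are given as log2 fold changes (log2FC) of TPM + 1 with standard errors, tested with limma across all 14399 genes with a mean TPM of at least 1, and called at an adjusted p under 0.05. Of the 10 genes, 8 passed this filter and were tested. Of these 8, 4 were called lower and none higher, against 7.34% of all tested genes called lower, 13.4% called higher and 20.8% called in either direction. In 0 of the 8 was every CAC library below every mock library, against 1.25% of all tested genes. The median log2FC of the 8 was -0.308, against 0.021 over all tested genes; it was -0.185 without mock replicate 5 and -0.120 without replicates 3 and 5. In whole tissue, fewer cells of a type and less RNA per cell cannot be told apart.

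B2m, the light chain shared by all class I molecules, had in mock replicates 1 to 5 at 8 weeks 239.5, 195, 334.5, 177 and 418 TPM. In the 7 CAC libraries it was 146, 165, 159, 161, 150.5, 138 and 242 TPM. Of the CAC libraries, 6 were below every mock library, and replicate 7 was above 3 of the mock libraries, so the groups overlapped. The log2FC was -0.66 ± 0.168 (limma, adjusted p = 0.00341). B2m was called whichever of the 12 libraries was left out, with a log2FC from -0.80 to -0.49. Without mock replicates 3 and 5 together the log2FC was -0.31 (limma, adjusted p = 0.272), and the call was lost. These were the 2 highest mock libraries for B2m, so leaving them out must shrink the difference, and 3 mock libraries remained. The same 6 CAC libraries were still below each of those 3. Losing the call in this way therefore cannot settle whether the difference rested on those 2 libraries.

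The heavy chains did not pass. H2-K1, which presents antigen to T cells, was 38.7, 26.1, 42.7, 24.7 and 91.0 TPM in the mock libraries. In CAC it was 30.5, 29.3, 27.1, 31.1, 28.9, 25.3 and 31.3 TPM, inside the range of mock. The log2FC was -0.44 ± 0.175 (limma, adjusted p = 0.0659). It passed when mock replicate 2 (-0.58, adjusted p = 0.0157) or replicate 4 (-0.60, adjusted p = 0.0135) was left out, and was -0.14 (adjusted p = 0.55) without mock replicate 5. H2-D1 had a log2FC of -0.23 ± 0.589 (adjusted p = 0.825), and it turned to 0.18 (adjusted p = 0.852) without CAC replicate 3.

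Tap1, the transporter's first subunit, was 1.97, 1.62, 2.34, 1.04 and 3.40 TPM in mock and 1.19, 1.18, 1.69, 1.73, 1.08, 1.12 and 1.29 TPM in CAC. The groups overlapped: mock replicate 4 was below all 7 CAC libraries, and the other 4 mock libraries were each above at least 5 of the 7. The log2FC was -0.36 ± 0.123 (limma, adjusted p = 0.0291). The call was lost when any of 5 single libraries was left out, namely CAC 1 or 6 or mock 1, 3 or 5, with adjusted p from 0.0503 to 0.2. Its partner Tap2 was not called: at 10.9 ± 1.23 TPM in CAC (n = 7) and 10.7 ± 1.49 in mock (n = 5) its log2FC was 0.04 ± 0.0839 (limma, adjusted p = 0.807).

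Tapbp was 33.5, 39.6, 37.95, 33.5 and 38.7 TPM in mock and 27.7, 27.6, 39.5, 27.9, 29.9, 30.2 and 32.6 TPM in CAC. Of the CAC libraries, 6 were below every mock library. CAC replicate 3, the library highest in red blood cell markers, was near the top of mock. The log2FC was -0.25 ± 0.0884 (limma, adjusted p = 0.0344). The call was lost in 7 of 12 cases of leaving out 1 library, namely CAC 1, 2, 4 or 6 or mock 2, 3 or 5, with adjusted p from 0.0577 to 0.0821.

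Among the immunoproteasome subunits, Psmb8 was 3.66, 1.79, 2.81, 1.87 and 8.19 TPM in mock and 1.61, 2.05, 2.27, 2.09, 1.42, 1.00 and 2.54 TPM in CAC. Its log2FC was -0.58 ± 0.176 (limma, adjusted p = 0.014), and mock replicate 5 decided the call: without it the log2FC was -0.30 (adjusted p = 0.177). Psmb10 was 31.3 ± 2.19 TPM in mock (n = 5) and 27.6 ± 1.62 in CAC (n = 7), with a log2FC of -0.18 ± 0.0672 (limma, adjusted p = 0.0541). It passed without CAC replicate 3 (adjusted p = 0.0416), CAC replicate 4 (0.0464) or mock replicate 2 (0.0253). The difference of Psmb8 was thus larger than that of the abundant Psmb10, and both had the same sign.

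Psmb9 and Nlrc5 fell short of the filter on low values and were fitted only with that filter removed, over 24519 symbols, of which 4.46% were called lower. Psmb9 was 1.51, 1.13, 1.499, 0.775 and 2.82 TPM in mock and 0.513 to 0.992 TPM in CAC, with a median of 0.648. Its log2FC was -0.56 ± 0.122 (limma, adjusted p = 0.00108) and the call held when any single library was left out. Nlrc5 was 0.585, 0.283, 0.5262, 0.275 and 1.64 TPM in mock and 0.0966 to 0.368 TPM in CAC, with a median of 0.261. Its log2FC was -0.35 ± 0.0939 (limma, adjusted p = 0.00786), and without mock replicate 5 it was -0.17 (adjusted p = 0.121). The depth of the libraries is unknown, so how well levels near 1 TPM were measured cannot be stated.

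With mock replicates 3 and 5 both left out, 0 of the 8 tested genes were called, against 4.70% of all genes called lower. Psmb8 then stood at -0.25 (limma, adjusted p = 0.37), Tap1 at -0.12 (0.611), Tapbp at -0.21 (0.197), and, without the filter, Psmb9 at -0.35 (0.0931) and Nlrc5 at -0.14 (0.373). H2-K1 was at -0.01, H2-D1 at -0.04, Psmb10 at -0.12 and Tap2 at 0.16 (limma, adjusted p = 0.979, 0.979, 0.342 and 0.291). All of these values, and that of B2m, kept the sign they had with all libraries. The number of tested class I genes called ranged from 1 to 5 when single libraries were left out: 1 without mock replicate 5, 2 without mock replicate 3 and 5 without CAC replicate 3.

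**Figure D2:**
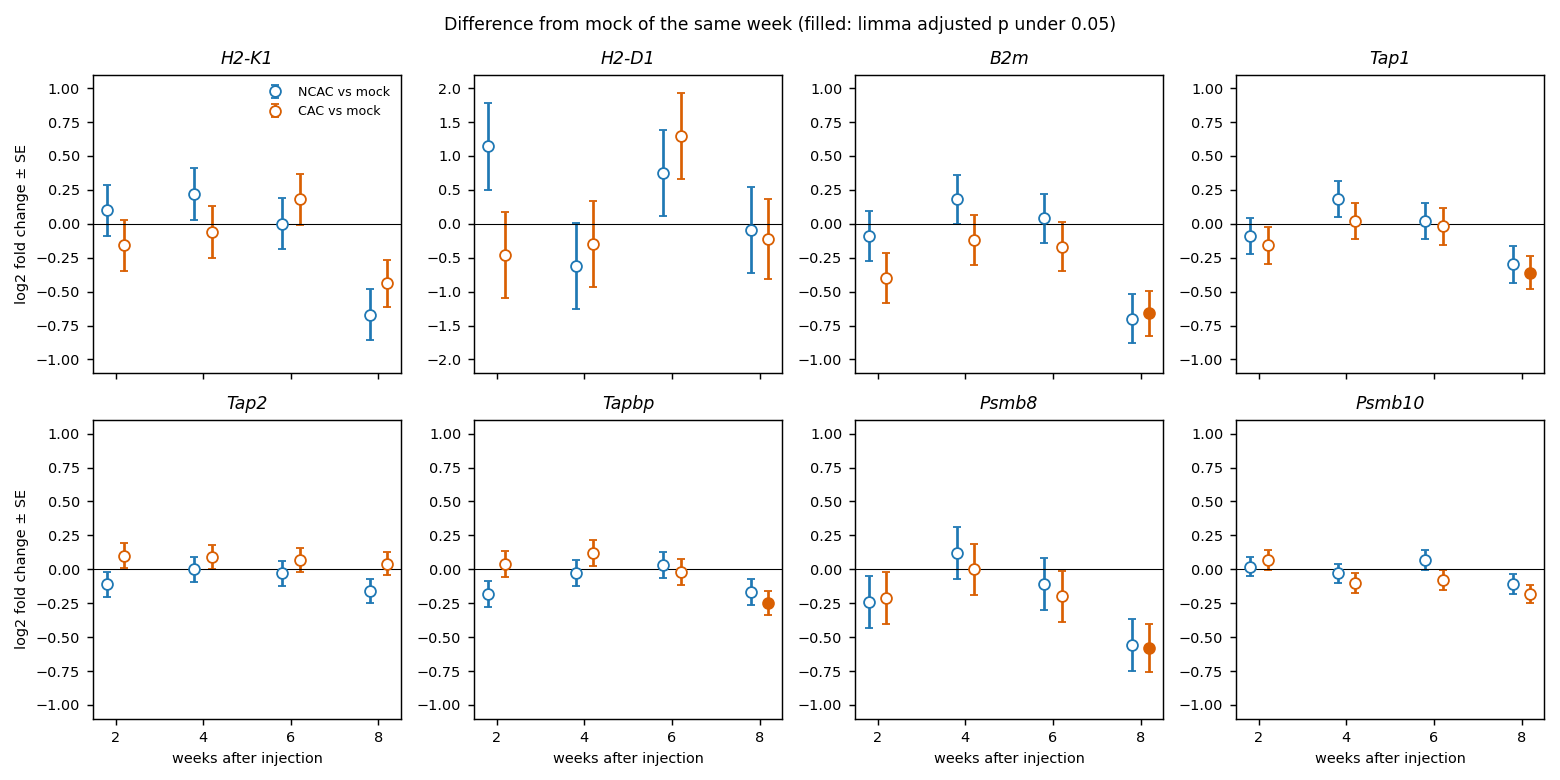
Log2 fold change of TPM + 1 against mock (± SE) in each week for the 8 tested genes, CAC in orange and NCAC in blue, with filled points where limma's adjusted p was under 0.05. The filled points are B2m, Tap1, Tapbp and Psmb8 in CAC at 8 weeks, and the NCAC points of that week lie on the same side of 0.

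NCAC cerebellum at 8 weeks had values of B2m, H2-K1 and Psmb8 on the same side of the same mock libraries, but no gene passed. The share of all genes called was 0%, and 1038 of 14399 genes had an unadjusted p under 0.05. Among the 8 class I genes tested, 8 had a negative log2FC and 4 an unadjusted p under 0.05, with a median of -0.236 against 0.002 over all genes. In 0 of the 8 did the NCAC libraries lie wholly below mock, against 0.59% of all genes. Since both tumour groups were compared with the same 5 mock libraries, the signs are not independent between them.

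B2m was 134, 189, 139, 141 and 203 TPM in the NCAC libraries, with a log2FC against mock of -0.70 ± 0.181 (limma, adjusted p = 0.464), beside -0.66 in CAC. H2-K1 was 21.7, 25.9, 27.4, 22.8 and 25.8 TPM, with -0.67 ± 0.189 (adjusted p = 0.475) beside -0.44. Psmb8 was 1.96, 2.53, 1.71, 1.33 and 1.88 TPM, with -0.56 ± 0.19 (adjusted p = 0.588) beside -0.58. The adjustment depends on how many genes have a small p, and 1038 had one under 0.05 in NCAC against 4882 in CAC. Tap1 (-0.30), Tapbp (-0.17), Tap2 (-0.16), Psmb10 (-0.11) and H2-D1 (-0.09) had smaller log2FC in NCAC, with limma adjusted p from 0.671 to 0.986. Without the filter, Psmb9 was at -0.43 (adjusted p = 0.365) and Nlrc5 at -0.45 (adjusted p = 0.24).

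Most NCAC differences, that of H2-D1 aside, were smaller without the same mock libraries. Without mock replicate 5, B2m was at -0.53, H2-K1 at -0.37, Psmb8 at -0.27, Tap1 at -0.16 and H2-D1 at 0.11, and the median of the 8 genes was -0.155. Without replicates 3 and 5, B2m was at -0.35, H2-K1 at -0.24, Psmb8 at -0.23 and Tap1 at -0.06, the median was -0.092, and 0 of 8 genes had an unadjusted p under 0.05 (limma, adjusted p = 1 for each of the 8).

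CAC and NCAC compared directly at 8 weeks gave 0 of 8 class I genes called, against 11.8% of all genes. B2m differed by 0.04 ± 0.168 (limma, adjusted p = 0.918) and H2-K1 by 0.23 ± 0.175 (adjusted p = 0.444). Tap2 alone had an unadjusted p under 0.05, at 0.20 higher in CAC (limma, adjusted p = 0.111). No class I gene was thus called between the tumour groups at that week, which does not show that they were alike.

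In the earlier weeks no class I gene was called in any pairing, at 2, 4 or 6 weeks. The shares of all genes called were 0%, 0.00694% and 1.72% for CAC against mock, 0.0139%, 0% and 0% for NCAC against mock, and 0%, 0.00694% and 9.45% for CAC against NCAC. Unadjusted p-values under 0.05 fell on B2m in CAC against mock at 2 weeks and H2-D1 at 6 weeks, on H2-D1, Tap2 and Tapbp in CAC against NCAC at 2 weeks, and on Psmb10 there at 6 weeks. B2m in CAC at 2 weeks was 144, 148, 130.2, 132 and 101 TPM, against 164, 141, 185, 173 and 204 in mock, a log2FC of -0.40 ± 0.181 with an unadjusted p of 0.0299 (limma, adjusted p = 1). At 4 weeks the log2FC of B2m was -0.12 and at 6 weeks -0.17. Its mean was thus below that of mock in CAC at each of the 4 weeks, with overlapping libraries in each.

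Averaged over the 4 weeks, CAC was lower than mock in 2 of 8 class I genes, against 6.69% of all genes called lower, 16.3% called higher and 23% called in either direction. B2m had a log2FC of -0.34 ± 0.089 (limma, adjusted p = 0.00452). This call held in all 42 cases of leaving out 1 library, with adjusted p from 0.000877 to 0.0097, and without mock replicates 3 and 5 of week 8 (-0.25, adjusted p = 0.0288). Psmb8 had -0.25 ± 0.0935 (adjusted p = 0.0488), lost in 24 of 42 such cases (adjusted p 0.0508 to 0.0992) and without mock replicates 3 and 5 (-0.16, adjusted p = 0.15). Without the filter, Psmb9 was at -0.23 (adjusted p = 0.0112). The NCAC average against mock had no called gene among all 14399, with 573 at an unadjusted p under 0.05, B2m at -0.14 (adjusted p = 1) and H2-K1 at -0.09 (adjusted p = 1). Without mock replicates 3 and 5 of week 8 the last 2 were at -0.05 and 0.02.

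The change of the CAC difference from 2 to 8 weeks was not called for any of the 8 genes, against 1.55% of all genes. It was -0.26 ± 0.247 for B2m (limma, adjusted p = 0.653), -0.29 for Tapbp (adjusted p = 0.239) and -0.24 for Psmb10 (adjusted p = 0.193). The last pair had an unadjusted p under 0.05. Without mock replicates 3 and 5 the change was 0.10 for B2m, -0.25 for Tapbp and -0.19 for Psmb10 (limma, adjusted p = 0.899, 0.421 and 0.418). A difference between weeks in the CAC effect on B2m is therefore not shown.

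The mock libraries themselves differed between weeks. Age at sampling may differ with the week as well, and its part was not tested. From 2 to 8 weeks all 8 tested genes had a positive log2FC, with a median of 0.413 against -0.016 over all genes, and 7 had an unadjusted p under 0.05. None was called, nor was any of the 14399 genes (0%), of which 1211 had an unadjusted p under 0.05. H2-K1 was 17.8, 22.3, 22.9, 26.1 and 26.9 TPM at 2 weeks, beside the values at 8 weeks above, with a log2FC of 0.76 ± 0.189 (limma, adjusted p = 0.26). B2m had 0.58 ± 0.181 (adjusted p = 0.359). Tap2 was 8.00 to 9.13 TPM at 2 weeks and 9.58 to 12.95 at 8 weeks, without overlap, with a log2FC of 0.30 (adjusted p = 0.351). It was the only one of the 8 without overlap, against 0.556% of all tested genes with every mock library of week 8 above every one of week 2. Without replicate 5 of week 8 the median of the 8 genes was 0.225, with H2-K1 at 0.47 and B2m at 0.41. Without replicates 3 and 5 it was 0.176, with H2-K1 at 0.33, B2m at 0.23 and Tap2 at 0.18, and 0 of 8 genes had an unadjusted p under 0.05 (limma, adjusted p = 0.99 for each of these 3). With all libraries, the mock group of week 8 held the highest mean of the 12 groups for B2m, H2-K1, Tap1, Tapbp, Psmb8, Psmb9, Psmb10 and Nlrc5.

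H2-D1, the second heavy chain, did not vary as the others did. It ranged 27.9-fold, from 9.33 to 260.5 TPM, with a wide gap: 7 libraries lay at 9.33 to 22.3 TPM and 55 at 91.7 TPM or above. Among gaps with at least 7 libraries on either side, the next was narrow, a 1.25-fold step between 131 and 164 TPM, with 30 libraries between the gaps and 25 above. The latter step is small and its 2 sides are named middle and highest below only to describe the values. The empty interval from 22.3 to 91.7 TPM spans 2.04 on the log2 scale, whereas the widest empty intervals of the other 7 tested genes spanned 0.10 to 1.16 and, except for Tap2, each set 1 library apart. The 7 low libraries came from 5 groups, namely CAC at 2 weeks (replicate 1 at 16.1 and replicate 2 at 14.4 TPM), mock at 2 weeks (replicate 1 at 18.1 and replicate 5 at 19.3), NCAC at 4 weeks (replicate 5 at 10.3), mock at 6 weeks (replicate 4 at 9.33) and CAC at 8 weeks (replicate 3 at 22.3). The middle level was present in all 12 groups and the highest in 10. The levels therefore cut across tumour type and week.

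This spread set the error of every H2-D1 comparison. At 8 weeks the CAC libraries were 217, 208, 22.3, 189.9, 219, 116 and 120 TPM, and the mock libraries 204, 103, 131, 112 and 260.5 TPM. The 5 NCAC libraries were 99.2, 175, 195, 172 and 102 TPM. Each group thus held libraries of 2 or 3 levels. The largest H2-D1 difference was that of CAC against NCAC at 2 weeks, a log2FC of -1.60 (limma, adjusted p = 0.649), where CAC held 2 low and 3 middle libraries and NCAC 2 middle and 3 high ones. At 6 weeks CAC against mock was 1.29 ± 0.636 (limma, adjusted p = 0.308).

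The low H2-D1 libraries were not low in H2-K1 or B2m. Their H2-K1 ran from 17.8 to 27.1 TPM, and 1 of the 7 was among the 7 lowest for that gene. Their B2m ran from 144 to 204 TPM, with 0 of 7 among the lowest. They were, however, the 7 lowest of all 62 for the class I gene H2-Q1 (0.265 to 0.744 TPM, with the next library at 0.808) and for Atp6v1g2, a subunit of the vacuolar proton pump encoded in the same region (327 to 369 TPM, next 372). H2-Ea-ps, a class II sequence, was listed at 0 in 8 libraries, of which 6 were among these 7. Other genes of the region tended the opposite way. Ddah2 was 60.4 to 77.95 TPM in these 7 libraries, which included the highest of all 62, where the lowest was 30.9. H2-Bl was 9.03 to 20.7 TPM, again including the highest, where the lowest was listed at 0. The 7 were not alike in this. Counted from the lowest of 62, mock replicates 1 and 5 of week 2 ranked 49 and 39 for H2-Bl, and the rest 57 or above. For Ddah2, mock replicate 1 of week 2 ranked 47 and the rest 57 or above. H2-Q1, Atp6v1g2, Ddah2 and H2-Bl were singled out after their values were seen.

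Neighbouring genes varied with H2-D1 in both directions. When all tested genes were ranked by the size of the correlation of their deviations from group means with those of H2-D1, all of the top 20 lay between 33 and 38 Mb of chromosome 17, a window that held 1.01% of the 13929 tested genes with a position. Of the 20, 12 varied in the same direction as H2-D1 and 8 in the opposite one. The number of the top 20 within that window was 5 for H2-K1, 6 for Tapbp, 3 each for B2m, Tap1 and Psmb8, 1 for Tap2 and 0 for Psmb10. No value of a correlation with H2-D1 is given because its libraries fall into separate levels. Whether the genotype of the hosts at this locus differed, and how reads from other class I alleles were assigned, was not tested, and the labels name 2 strains.

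**Figure D3:**
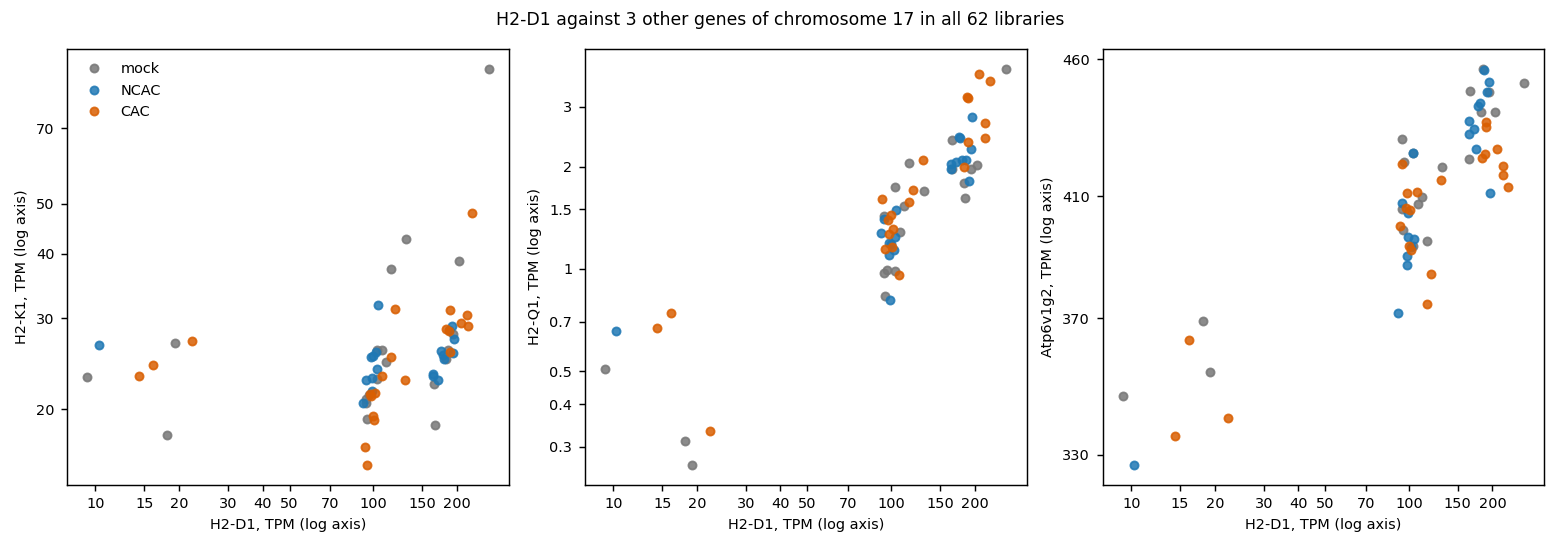
TPM of H2-K1, H2-Q1 and Atp6v1g2 against TPM of H2-D1 (log axes) in the 62 libraries, mock grey, NCAC blue and CAC orange. The 7 libraries with H2-D1 at 9.33 to 22.3 TPM have the lowest H2-Q1 and Atp6v1g2 of all but ordinary H2-K1, and they include all treatments.

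H2-K1, B2m, Tap1 and Psmb8 varied together between libraries of the same group. Most pairs with Tap2, Tapbp or Psmb10 did so less, but pairs with Tap1 showed no clean split. Over the 62 libraries, Pearson's r of the deviations from group means was 0.84 for Psmb8 with H2-K1, 0.79 for B2m with H2-K1, 0.79 for Psmb8 with B2m, and 0.77 for Tap1 with H2-K1. Leaving out the 2 libraries farthest from the median brought these to 0.73, 0.73, 0.72 and 0.73, and Spearman's rho was 0.70, 0.74, 0.70 and 0.71. Tap1 was less close to B2m (r 0.66, 0.60 without the 2 farthest, rho 0.56) and to Psmb8 (0.68, 0.57 and 0.57). Tap1 with Tap2 was near these (0.62, 0.58 and 0.50), as was Tap1 with Psmb10 (0.53, 0.55 and 0.58). Psmb10 with Psmb8 was lower (0.33, 0.25 and 0.26). Tapbp stood at r 0.24 with H2-K1, 0.23 with Psmb8 and 0.50 with Tap1, Tap2 at 0.37 with B2m, and Psmb10 at 0.35 with H2-K1. Psmb9 and Nlrc5, under the filter on low values, were left out of these pairs. These values describe libraries that share tissue dissection, and TPM makes all genes of a library share 1 total.

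Genes outside the set were ranked by the r of their deviations with the mean deviation of the 8 tested class I genes, H2-D1 included. The deviations were not scaled, so H2-D1, whose spread was the largest, weighed most in that mean. H2-Q6 and H2-Ab1, named next, were also among the top 20 genes for H2-D1 alone. The 8 highest over the 62 libraries were H2-Q6 (0.84) and H2-Q4 (0.78), both class I genes of the Q region, then Nckap1l (0.72), Mpeg1 (0.72), C1qb (0.71), H2-Ab1 (0.71), Itgb2 (0.69) and Cd52 (0.69). Without the 2 farthest libraries they ran from 0.61 to 0.81, with rho from 0.55 to 0.77. Mpeg1, C1qb and Itgb2 are known from macrophages and microglia. Over the 12 group means, the 8 highest were H2-Q6 (0.93), H2-Q4 (0.91), Odc1 (0.90), H2-Ab1 (0.90), H2-T23 (0.89), Irgm1 (0.89), Man2b2 (0.89) and Zc3hav1 (0.86), and H2-Q6 dropped to 0.58 without the 2 farthest groups.

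B2m followed the microglial markers from library to library, and the interferon response list at a higher r. The r of its deviations with those of the 15-marker list was 0.78 over 62 libraries (0.70 without the 2 farthest). It was 0.72 (0.61) for H2-K1, 0.68 (0.54) for Psmb8, 0.60 (0.53) for Tap1, 0.52 (0.48) for Psmb10, 0.41 (0.42) for Tapbp and 0.38 (0.26) for Tap2. With the interferon response list it was 0.84 (0.85) for B2m, 0.67 (0.75) for Tap1, 0.64 (0.60) for Tapbp, 0.62 (0.65) for Psmb8 and 0.61 (0.65) for H2-K1. Psmb10 (0.42, 0.46) and Tap2 (0.34, 0.46) were lower there. At 8 weeks the summed microglial TPM was 374, 325, 464, 286 and 601 in mock, 281, 294, 286, 249 and 313 in NCAC, and 304.5, 344, 310.4, 316, 346, 282 and 398.5 in CAC. Of the 15 markers, 6 were called lower in CAC than in mock, 3 without mock replicate 5 and 2 without replicates 3 and 5, and none was at 0 in every library. The shares of all genes called lower in these fits were 7.34%, 7.24% and 4.70%. The part of microglial RNA in the class I differences was not tested.

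**Figure D4:**
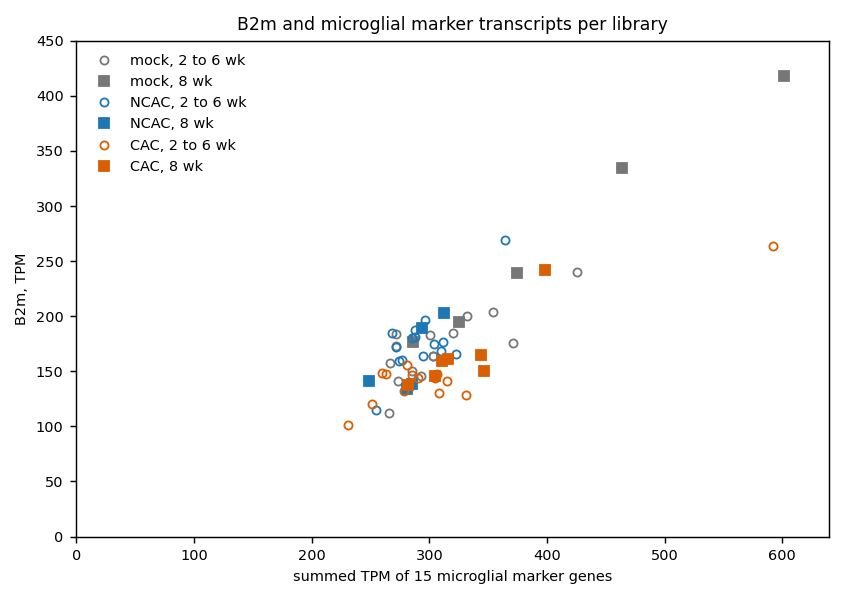
B2m TPM against the summed TPM of 15 microglial markers in each library, squares for week 8 and open circles for the earlier weeks, mock grey, NCAC blue and CAC orange. B2m is higher where the marker sum is higher, and the upper right holds mock replicates 5 (418 and 601 TPM) and 3 (334.5 and 464 TPM) of week 8.

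Markers of other cell types that could bring class I RNA were read in the same comparison, where 13.4% of all genes were called higher and 7.34% lower. The summed TPM of 9 B and plasma cell markers was 6.89 to 806 in mock, 6.11 to 10.5 in CAC and 5.66 to 8.71 in NCAC. Of its 4 tested markers, 4 were called lower in CAC, and 0 without mock replicate 5. T and natural killer cell markers summed to 4.85 to 14.9 TPM in mock and 3.67 to 5.55 in CAC. The 14.9 was mock replicate 5, and the other mock libraries of that week held 4.85 to 6.17. Cd3e and Cd8a were listed at 0 in every one of these CAC libraries, and also in every mock library of weeks 2 and 4. They were the only 2 of the 12 markers at 0 in all of these CAC libraries. The others, Cd3d, Cd3g, Cd4 and Trac among them, were above 0 in at least 1. The 1 of 12 markers that could be tested was not called. Endothelial markers summed to 229.8 to 271 TPM in mock and 262 to 355 in CAC, with 4 of 10 called higher and 1 lower, and perivascular macrophage markers to 5.14 to 8.82 and 8.64 to 12.8 TPM, with 2 of 4 tested called higher, 1 without mock replicate 5 and 0 without replicates 3 and 5. The part of these cells in the class I values was not tested.

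The rest of the class I pathway was taken from lists of genes by role, with the same CAC against mock comparison at 8 weeks and the same background of 13.4% of all genes called higher and 7.34% lower. None of 12 other class I and class I-like genes was called by limma in either direction, 3 had an unadjusted p under 0.05, and the median log2FC was -0.053. That median was 0.021 without mock replicate 5 and 0.039 without replicates 3 and 5, on the other side of 0. The nearest were the Q and T region genes H2-Q6, at 2.14 ± 0.453 TPM in CAC (n = 7) and 4.79 ± 3.12 in mock (n = 5; -0.72, limma adjusted p = 0.0663), H2-Q4 (-0.58, adjusted p = 0.0819) and H2-T24 (-0.49, adjusted p = 0.0862). Fcgrt, the neonatal Fc receptor that pairs with B2m but binds no peptide, was at -0.09 (adjusted p = 0.357). In NCAC, H2-T23 was at -0.53 and H2-T22 at -0.18 (limma, adjusted p = 0.594 and 0.671).

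Among 11 tested genes of peptide loading and trimming, 2 were called higher and 1 lower, with a median of -0.078. Higher were Lnpep, an aminopeptidase of the endosomal route, at 75.1 ± 3.01 against 65.0 ± 7.74 TPM (log2FC 0.21, limma adjusted p = 0.00146), and the cytosolic tripeptidyl peptidase Tpp2 (0.10, adjusted p = 0.0291). Lower was Psme2, a subunit of the interferon-inducible proteasome activator, at 29.1 ± 1.29 against 33.2 ± 2.32 TPM (-0.18, adjusted p = 0.00912). Tpp2 lost its call without any of CAC 4, 6 or 7 or mock 3 or 4 (limma, adjusted p up to 0.104), and Psme2 without mock replicate 5 (-0.15, adjusted p = 0.0532), while Lnpep kept it in each case. Pdia3, the disulfide isomerase that works beside tapasin, was at -0.20 (adjusted p = 0.0672). Of 14 constitutive proteasome subunits, 1 was called lower, Psma5 at -0.10 (adjusted p = 0.0298), none was called higher, and the median was 0.013. Psma5 lost its call in 6 of 12 cases of leaving out 1 library, namely CAC 1, 6 or 7 or mock 1, 2 or 5 (adjusted p up to 0.106).

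Among 25 tested regulators of class I transcription and interferon signalling, 2 were called higher and 3 lower. Socs3, a feedback inhibitor of cytokine receptors, was 3.62 ± 0.629 TPM in CAC (n = 7) and 1.62 ± 0.433 in mock (n = 5; log2FC 0.82, limma adjusted p = 2.8e-06). Stat2 was also higher (0.20, adjusted p = 0.00946). Irf1, the interferon gamma responsive factor that acts on class I promoters, was lower (-0.38, adjusted p = 0.00645), and lost the call without mock replicate 5 (-0.21, adjusted p = 0.095). The interferon receptor chains Ifngr2 (-0.16, adjusted p = 0.00174) and Ifnar2 (-0.20, adjusted p = 0.0114) were lower as well. Ifnar2 was named after its values were seen, to complete the count, and lost its call without mock replicates 3 and 5 (-0.17, adjusted p = 0.0945), where Socs3 (0.76), Stat2 (0.21) and Ifngr2 (-0.14) kept theirs. The 5 calls among 25 genes are close to the 20.8% of all genes called.

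In the interferon response list, 8 of 29 tested genes were called lower and none higher, with a median log2FC of -0.418. Without mock replicate 5 or mock replicate 3 the count was again 8, with medians of -0.336 and -0.220, and without both it was 4, with a median of -0.144. The share of all genes called lower was 7.34% with all libraries. It was 7.24% without mock replicate 5, 5.24% without mock replicate 3 and 4.70% without both. The guanylate binding proteins Gbp7 (-0.64, limma adjusted p = 0.000328), Gbp4 (-0.77, 0.000545) and Gbp2 (-0.83, 0.000832), and the immunity-related GTPase Iigp1 (-1.08, 0.00112), had the smallest p. Each of these 4 kept its call without any single library and without mock replicates 3 and 5, where they stood at -0.42, -0.64, -0.60 and -0.74 (limma, adjusted p = 0.0472, 0.0197, 0.0407 and 0.0425). Of 7 tested class II genes, 3 were called lower, H2-Eb1 (-1.52, limma adjusted p = 0.00926), Cd74 (-1.18, 0.0215) and H2-Aa (-1.07, 0.0228), and all 3 calls were lost without mock replicate 5 (adjusted p = 0.128, 0.299 and 0.303). Cd74 also lost its call without CAC 4 or 6 or mock 1, and H2-Aa without CAC 4 or mock 1. In NCAC against mock at 8 weeks no gene of these lists was called in either direction, with Irgm2 (-0.65) and Iigp1 (-0.98) at limma adjusted p = 0.464, Irf1 at -0.34, Ifngr1 at -0.14 (adjusted p = 0.594) and H2-Aa at -1.16 (0.537).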

How the data were processed

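The authors deposited 1 table of TPM values per gene symbol, on build mm10 per the submitters' processing notes. The sources used here give no aligner, quantifier or annotation. Per the labels' protocols, RNA came from Trizol extracts and the mRNA libraries were stranded. TPM keeps no depth, so library depth is unknown and no counting intervals are given. Groups and replicate numbers came from the sample descriptions, and match the titles. The treatment field holds 1 value for all samples and was left out, as was a remark in the extraction protocol on another tumour model. Of 47643 symbols, 23124 were at 0 in all libraries.

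Values were analysed as log2(TPM + 1), which understates changes of low genes, for 14399 symbols whose mean TPM was 1 or more. One limma fit (limma 3.58.1, R 4.3.3, eBayes with trend) held all 12 groups, with 50 residual degrees of freedom and no covariates. The two-sided p-values were Benjamini-Hochberg adjusted within each of 16 comparisons. The script was tested on simulated data. No 2 libraries were identical. The members and the gene lists were chosen with earlier results of these data known. The text names all 10 members, up to 4 genes of smallest p per list in each of 2 comparisons, and the 8 genes most like the set by each of 2 measures. One gene that this rule names is not reported here. Alternatives were another pseudocount, filters, scalings, library weights, a replicate block, a fit of only the groups compared, a fold limit, removal of 37 mitochondrial genes, and each library left out. Positions are from GENCODE M21 and promoter windows from RefSeq, both on GRCm38.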

Additional observations from a re-analysis of the deposited data

Results flagged for a closer look

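Within each of the 12 groups, the highest and lowest library of each of the 10 genes were compared with the rest by Dixon's ratio of the gap to the group's range. Of 120 gene and group pairs, 18 had a library beyond the 95% critical value, and chance flags about 1 in 20.

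Several fell in the same library. CAC replicate 2 at 6 weeks was high for H2-K1 (48.0 TPM, next 28.6), B2m (263.5, next 147) and Psmb8 (3.56, next 1.73). Mock replicate 5 at 8 weeks was high for H2-K1 (91.0 TPM, next 42.7) and Nlrc5 (1.64, next 0.585). NCAC replicate 5 at 6 weeks was high for H2-K1 (31.8 TPM, next 25.4) and B2m (269, next 177). CAC replicate 3 at 8 weeks, 1 of the libraries low in H2-D1, was high for Tapbp (39.5 TPM, next 32.6) and Psmb9 (0.992, next 0.701).

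H2-D1 was high in CAC replicate 2 at 4 weeks (189 TPM, next 107) and NCAC replicate 2 at 6 weeks (165 TPM, next 104), and low in mock replicate 4 at 6 weeks (9.33 TPM, next 94.5). The first of these, CAC replicate 2 at 4 weeks, was also low for Psmb10 (20.6 TPM, next 26.9). The remaining libraries were each set apart for 1 gene. B2m was 242 TPM in CAC replicate 7 at 8 weeks (next 165), and Nlrc5 was 0.455 TPM in NCAC replicate 3 at 6 weeks (next 0.254). Tap2 was 7.70 TPM in CAC replicate 1 at 2 weeks (next 9.14) and 9.69 TPM in NCAC replicate 4 at 2 weeks (next 7.60). Tapbp was 43.0 TPM in mock replicate 5 at 2 weeks (next 31.8).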

How the results depend on the processing

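For CAC against mock at 8 weeks, 4 of 8 class I genes were called. The count was 1 (B2m) with a limit of 1.5-fold, 2 (B2m and Psmb10) when only the groups compared were fitted, and 6 of 9 with mitochondrial genes removed, where Psmb9 passed the filter and was called. It was 5 of 10 with no filter (B2m, Tap1, Psmb8, Psmb9 and Nlrc5, so 3 of the 8), 5 of 8 with median-of-ratios scaling, quantile normalization or library weights, 3 at a mean TPM of at least 5, and 1 to 5 with single libraries left out. With mock replicates 3 and 5 left out, an alternative chosen after seeing the data, it was 0. The background of all genes moved as well. It was 2990 called, 64.6% of them higher, in the main fit, and 3107 (41.8% higher) with mitochondrial genes removed. With median-of-ratios scaling, quantile normalization and library weights it was 3017 (50.4%), 3128 (47%) and 3805 (66%). More of all genes were thus called lower in each setting where more class I genes were. For the mean of 4 weeks, 2 genes were called, against 1 at a mean TPM of at least 5, 1 when only the groups compared were fitted, 0 with the limit of 1.5-fold, 1 without mock replicates 3 and 5, and 1 to 3 with single libraries left out. Mock at 8 against 2 weeks gave 1 (H2-K1) with library weights, against 0. H2-D1 in CAC at 8 weeks turned from -0.23 to 0.18 (limma, adjusted p = 0.852) without CAC replicate 3 and ranged from -0.37 to 0.18 with single libraries left out, and Tap2 from 0.04 to -0.01 (adjusted p = 0.953) with library weights. The causes were not tested.

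A fit with the replicate number as a block called 1 gene (B2m) at 8 weeks and 1 for the mean of 4 weeks, with Psmb8 at -0.55 (limma, adjusted p = 0.0733), Tap1 at -0.33 (0.0983) and Tapbp at -0.27 (0.0595). The numbers share no stated source. Of 60 same-numbered pairs, 16 had deviations correlated above 0.1 (range -0.24 to 0.40). Differently numbered pairs were not compared in this way, so whether the numbers pair the samples was not settled. Over all genes at 8 weeks, 2990 were called, against 1894 with the block, 1648 with only the groups compared, 241 past 1.5-fold and 1775 without mock replicates 3 and 5. Of the calls, 64.6% were higher in CAC, against 50.4% with median-of-ratios scaling, 47% with quantile normalization and 41.8% with mitochondrial genes removed. Depth is unknown and sets no stated limit.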
